A study of Rattus norvegicus with 21 samples.

Results

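Astrocytes grown from postnatal rat forebrain in serum were compared with astrocytes lysed straight after isolation from forebrain of the same age. The members are the 3 arrays of MD cultures and the 3 arrays of fresh P1 cells, chosen by their titles, 6 of the 21 arrays of the series, and the comparison runs over all 14217 genes measured. The fresh P1 cells were taken from 1-day-old Sprague Dawley rats by immunopanning, in which cells stick to a dish coated with an antibody, here against the integrin subunit ITGB5, and their RNA was collected at once. The MD cultures came from forebrain of that age, were prepared as McCarthy and de Vellis described, without panning, and were kept in medium with 10% foetal calf serum for 7 days. So the groups share species, brain region and starting age, and differ in purification, culture, serum and the days passed, which cannot be told apart here.  Whether tissue of several animals was pooled in a replicate is not stated, and where replicates are not separate animals the p-values measure only the spread between these samples.

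Other groups serve as reference points. HBEGF P1 cultures are panned P1 cells that spent 7 days without serum in the presence of 5 ng/ml of the growth factor HBEGF. Serum P7 cultures are panned cells of 7-day-old rats kept for 7 days in medium with 10% foetal calf serum, as the MD cultures were, and fresh P7 cells are their uncultured counterpart. The remaining groups enter the fit and 1 plot only: HBEGF P7 cultures are panned P7 cells kept for 7 days with HBEGF, and withdrawn P7 cultures had serum for 7 days and then HBEGF for another 7 days. The HBEGF P7 samples are placed by their titles, since another of their labels gives the age as P1. Each group has 3 arrays described as biological replicates.

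Astrocytes are glial cells that clear glutamate, buffer potassium, move water, supply neurons with metabolites and secrete factors that act on synapses. In the newborn forebrain they are still dividing and keep many genes of the radial glia they derive from. Serum carries plasma proteins and growth factors that brain cells seldom meet behind an intact blood-brain barrier, and it activates the serum response factor SRF, which acts through DNA elements named CArG boxes in genes of the actin cytoskeleton and in immediate-early genes.

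RNA was hybridised to the Affymetrix Rat Genome 230 2.0 array, and every value below is the log2 of the authors' deposited intensity. Arrays of 1 group were alike: Spearman correlations over probe sets were 0.978 to 0.991 among MD arrays and 0.98 to 0.994 among fresh P1 arrays, against 0.912 to 0.938 between the groups. Array medians lay between 7.00 and 7.05 in MD and between 7.11 and 7.12 in fresh P1. No detection calls were used, so values around 4 to 6 are dim signals with no stated background. An array cannot tell fewer cells of a type from less RNA per cell.

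The labelled cell type was checked against marker genes. Of the 5 defining astrocyte genes, Gfap, Slc1a3, Gja1 and Aqp4 lay between 12.03 and 14.53 in every fresh P1 and MD array. Aldh1l1, the fifth, was at 12.52, 12.65 and 12.32 in the fresh P1 arrays and 8.43, 8.84 and 8.67 in the MD arrays. The defining microglial genes Csf1r, Aif1, Cx3cr1 and C1qb did not exceed 6.59 in any MD array or 6.79 in any fresh P1 array. Among endothelial genes, Cldn5 lay at 8.77, 8.35 and 9.83 in fresh P1 and at 5.41, 5.17 and 5.31 in MD, and Kdr at 7.40, 7.05 and 7.46 against 5.29, 5.38 and 5.08. Both belong to the 3 endothelial genes that fell, and the other 12 of 15 measured were not called. The neuronal genes Dcx and Snap25 were at 8.18, 8.15 and 8.81 and at 8.34, 8.13 and 8.23 in fresh P1, and at 5.78, 6.51 and 6.42 and 7.57, 6.87 and 7.53 in MD; Dcx was called lower, and its call was lost with any 1 of the 6 arrays left out. Of the other neuronal markers, Tubb3 lay at 7.97, 8.58 and 9.46 in fresh P1 and 8.59, 9.47 and 8.96 in MD, and Stmn2 at 7.85, 7.67 and 8.97 in fresh P1 and 12.27, 11.61 and 11.40 in MD.

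One fresh array stood apart in fibroblast and meningeal genes. The mean over 30 such genes was 7.95, 8.82 and 8.21 in the fresh P1 arrays and 8.17, 7.87 and 7.94 in the MD arrays, so replicate 2 of fresh P1 was the highest of the 6. In that replicate Col1a1 was at 9.80, against 8.30 in replicate 1 and 8.38 in replicate 3. Dcn, the matrix proteoglycan decorin, was also highest there, at 9.57. For Dcn, however, replicate 1 at 7.27 was the most distant, with replicate 3 at 8.75. MD replicate 1 differed from the other MD arrays in some secreted proteins: Itih3, a hyaluronan-binding plasma protein, read 11.74, 8.16 and 8.29 in MD replicates 1, 2 and 3.

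**Figure D1:**
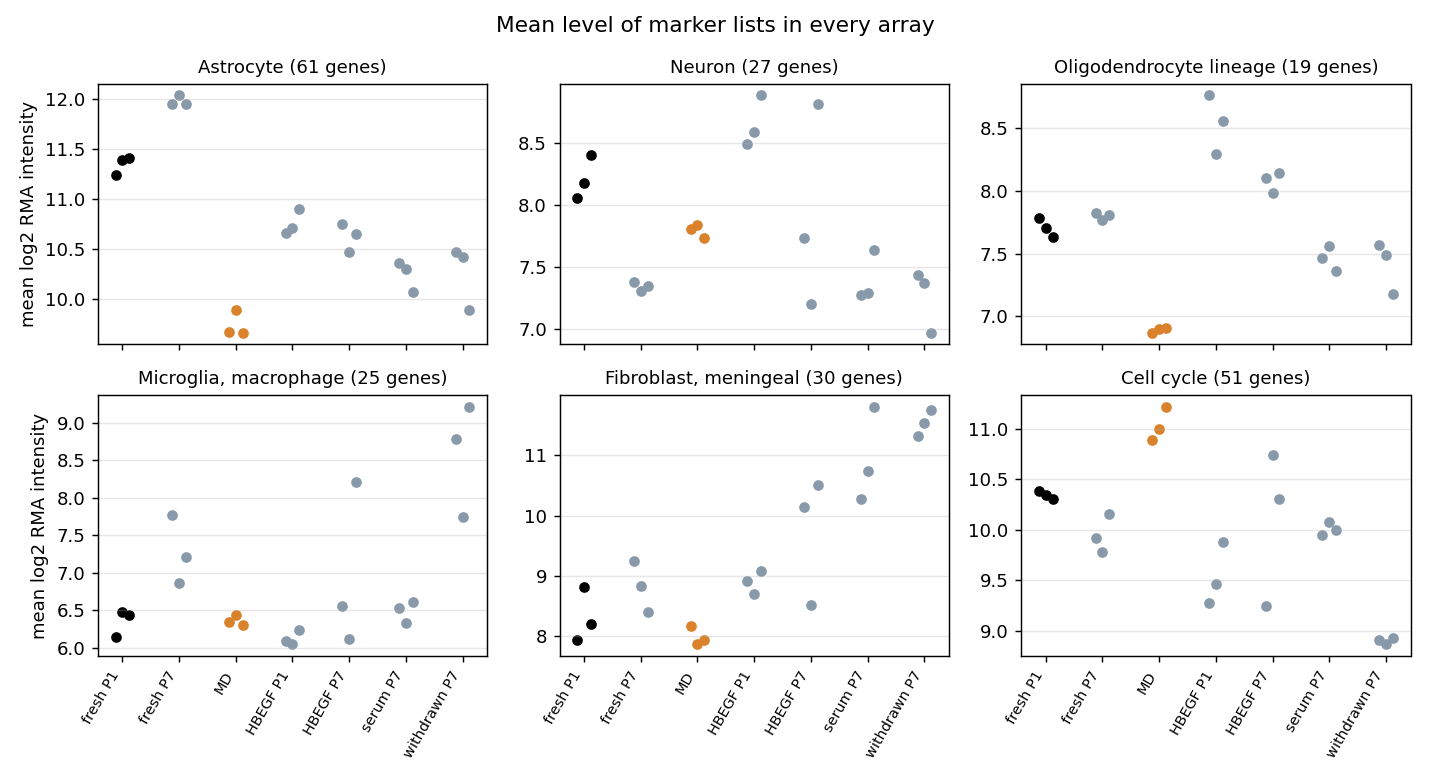
Mean log2 RMA intensity over the measured genes of 6 marker lists, with 1 point per array and 3 arrays in each of the 7 groups of the series. The MD arrays lie at 9.66 to 9.89 for the astrocyte list, below the fresh P1 arrays at 11.24 to 11.41, and at 10.89 to 11.21 for the cell cycle list, above fresh P1 at 10.30 to 10.38; the fibroblast lists of these groups overlap.

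Of 14217 genes, 2782 (19.6%) differed between MD cultures and fresh P1 cells. A gene was called when the moderated test of limma, fitted to all 21 arrays, gave an adjusted p under 0.05 (Benjamini-Hochberg over all 31042 probe sets) and the difference of group means was at least 1 on the log2 scale. In MD cultures 1442 genes rose (10.1% of those tested) and 1340 fell (9.43%), and these shares are the background for the list counts below. The MD arrays lay wholly above the fresh P1 arrays for 33% of the genes and wholly below for 23.4%, and 5 called genes had overlapping arrays. A change of at least 3 log2 was reached by 157 risen and 160 fallen genes. Over all genes the median change was 0.11 and the median standard error (SE) 0.17. Each SE rests on the spread within all 7 groups of the fit. It can thus be large through arrays outside the comparison. With any 1 of the 6 arrays left out in turn, 2187 of the 2782 called genes (78.6%) stayed called.

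The deepest falls included immediate-early genes and genes typical of astrocytes. Fosb, a subunit of the AP-1 transcription factor, was at 13.41, 13.33 and 13.31 in the fresh P1 arrays and 5.31, 4.88 and 5.35 in the MD arrays. Its 6 arrays form a bright and a dim set with nothing between, and the change was -8.17 (SE 0.15, adjusted p = 6.97e-16). The orphan nuclear receptor gene Nr4a1, induced within minutes of stimulation, was at 13.62, 13.58 and 13.56 in the fresh P1 arrays and 6.05, 5.89 and 6.08 in the MD arrays, a change of -7.58 (SE 0.22, adjusted p = 4.24e-13). Slco1c1, which carries thyroid hormone into astrocytes and endothelium, read 12.83, 12.60 and 12.61 in the fresh P1 arrays and 5.09, 5.52 and 5.22 in the MD arrays. Grm3, the metabotropic glutamate receptor mGluR3 of astrocytes, read 13.19, 12.55 and 12.39 in the fresh P1 arrays and 5.78, 5.64 and 4.74 in the MD arrays. Both were bright in all fresh arrays and near the dim end of the scale in all MD arrays, with changes of -7.40 (SE 0.28, adjusted p = 8.44e-12) and -7.32 (SE 0.33, adjusted p = 6.39e-11).

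Other large falls were those of Rlbp1, the retinaldehyde-binding protein CRALBP, which fell by 6.27, and Sfrp2, a secreted modulator of Wnt signalling, which fell by 6.04. Cspg5, the brain proteoglycan neuroglycan C, fell by 5.55, and Ntm, the adhesion protein neurotrimin, fell by 5.67. B3gat2, a glucuronosyltransferase, fell by 5.86, Plppr4 fell by 5.65, Rnf122 fell by 5.99, Dipk1c fell by 6.41 and Vit fell by 5.37. In each of these the dimmest fresh array was brighter than the brightest MD array by more than 3 log2.

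The largest rise was in S100a6, a small calcium-binding protein, at 7.38, 7.42 and 6.91 in the fresh P1 arrays and 13.99, 13.97 and 13.97 in the MD arrays. The MD arrays were nearly equal and the change was 6.74 (SE 0.26, adjusted p = 8.9e-12), or 107-fold. S100a4 and S100a11 of the same family rose by 5.84 and 5.51. Gda, guanine deaminase, was at 5.05, 5.58 and 6.13 in fresh P1 and 10.65, 12.11 and 12.15 in MD and rose by 6.05 (SE 0.47, adjusted p = 3.92e-08). The lowest MD array of Gda was MD replicate 1, still far above the highest fresh array. Lox, the lysyl oxidase that crosslinks collagen and elastin, was at 6.49, 8.31 and 6.58 in fresh P1 and 12.70, 12.81 and 12.85 in MD, with fresh P1 replicate 2 the highest fresh array, and rose by 5.66 (SE 0.54, adjusted p = 4.14e-07).

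Other large rises included Fstl3, a binder of activin, by 5.85, Mall, a membrane protein of the MAL family, by 5.68, and Cnn1, smooth muscle calponin, by 5.51. Spp1, osteopontin, rose by 5.18, Cryab, the small heat shock protein alpha B crystallin, by 5.12, and Myof, the membrane repair protein myoferlin, by 5.10. Ntng1, Rassf4, Slfn4 and C9h6orf141 rose by 5.56, 5.42, 5.39 and 5.25. All 30 of the largest changes kept their call with any 1 array left out.

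**Figure D2:**
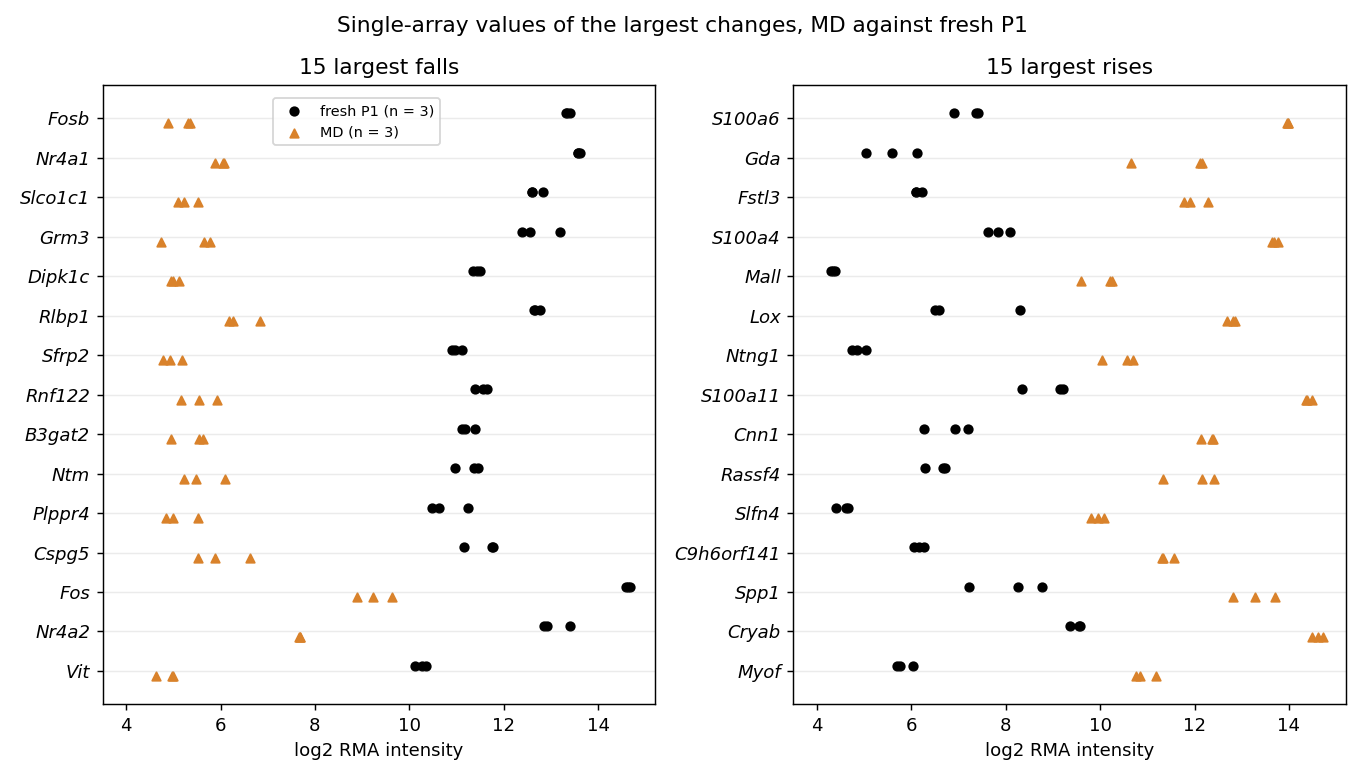
log2 RMA intensity of the 15 largest falls and 15 largest rises among called genes with non-overlapping arrays; each point is 1 array, circles for fresh P1 and triangles for MD, n = 3 each. In every row the 2 sets are apart, from -8.17 for Fosb to 6.74 for S100a6 in log2 change.

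Many astrocyte genes fell: of 61 measured members 33 fell and the other 28 were not called, with a list median of -1.27 against 0.11 over all genes. The classical markers were divided. Gfap, the glial filament protein, was at 12.03, 12.76 and 12.70 in the fresh P1 arrays and 12.74, 13.94 and 13.60 in the MD arrays. The lowest MD array lay between the fresh arrays, so the groups overlap, and the difference of 0.93 (SE 0.28, adjusted p = 0.0158) was under the limit of 1. S100b was at 12.71, 13.39 and 13.32 in fresh P1 and 13.36, 13.40 and 13.19 in MD, a difference of 0.18 (SE 0.20, adjusted p = 0.516), and Vim, vimentin, at 14.54, 14.68 and 14.55 in fresh P1 and 14.82, 15.12 and 14.99 in MD, a difference of 0.39 (SE 0.11, adjusted p = 0.0126). Gja1, the gap junction protein connexin 43, was at 14.14, 14.12 and 14.18 in fresh P1 and 13.97, 13.87 and 13.72 in MD; all MD arrays were below all fresh ones, and the difference of -0.30 (SE 0.10, adjusted p = 0.0246) was too small for a call.

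Aldh1l1, a folate enzyme used as a general astrocyte marker, was much lower in MD. It fell by 3.85 (SE 0.25, adjusted p = 4.04e-09), which is 14.4-fold, from the values given above. Aqp4, the water channel of astrocyte endfeet, was at 13.82, 13.59 and 13.86 in the fresh P1 arrays and 12.87, 12.72 and 12.38 in the MD arrays. All MD arrays were below all fresh arrays and the fall was 1.10 (SE 0.24, adjusted p = 0.0017). Without MD replicate 3 the change was -0.96 and no longer called.

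Of 7 genes for glutamate, glutamine and GABA handling, 6 fell. Slc1a3, the glutamate transporter GLAST, was at 14.51, 14.53 and 14.53 in fresh P1 and 13.12, 13.36 and 13.30 in MD. The fresh arrays were nearly equal and the fall was 1.27 (SE 0.20, adjusted p = 8.67e-05). Slc1a2, the transporter GLT-1 that matures later in development, was at 8.10, 8.36 and 8.28 in fresh P1 and 6.58, 6.90 and 6.74 in MD and fell by 1.51 (SE 0.20, adjusted p = 1.13e-05); averaging its 2 probe sets gave -0.94, below the limit. Glul, glutamine synthetase, was at 13.53, 13.67 and 13.73 in fresh P1 and 12.05, 12.34 and 11.70 in MD and fell by 1.61 (SE 0.18, adjusted p = 2.81e-06). Slc38a3, which releases glutamine, fell by 3.48, Slc7a10, an amino acid exchanger, fell by 3.01, and Slc6a11, the GABA transporter GAT-3, fell by 2.01. Gad1, which makes GABA, was dim and not called, at 5.27, 6.48 and 4.34 in MD.

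Of 9 water, ion and gap junction genes 3 fell. Besides Aqp4, Slc4a4, the sodium bicarbonate cotransporter, fell by 2.68, and Atp1b2, a sodium pump subunit, fell by 1.18, while Mlc1 and Hepacam, the proteins affected in megalencephalic leukoencephalopathy, had differences of -0.21 and -0.02 and were not called. Receptors fell in 5 of 8 cases: besides Grm3, Grm5 fell by 3.76, the GABA-B subunit Gabbr2 fell by 3.27, Gpr37l1 fell by 2.23 and Fgfr3 fell by 1.14. In metabolism, Cbs, which condenses homocysteine with serine, was at 12.08, 11.85 and 12.07 in fresh P1 and 7.51, 7.60 and 7.16 in MD. Dio2, the deiodinase that activates thyroid hormone, was at 8.52, 8.62 and 8.58 in fresh P1 and 4.22, 4.57 and 4.34 in MD. Neither gene's groups overlapped, and the falls were 4.58 (SE 0.25, adjusted p = 5.32e-10) and 4.20 (SE 0.16, adjusted p = 8.9e-12). Fabp7, Apoe and Clu, lipid carriers, had differences of -0.88, -0.19 and 0.67 and were not called.

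**Figure D3:**
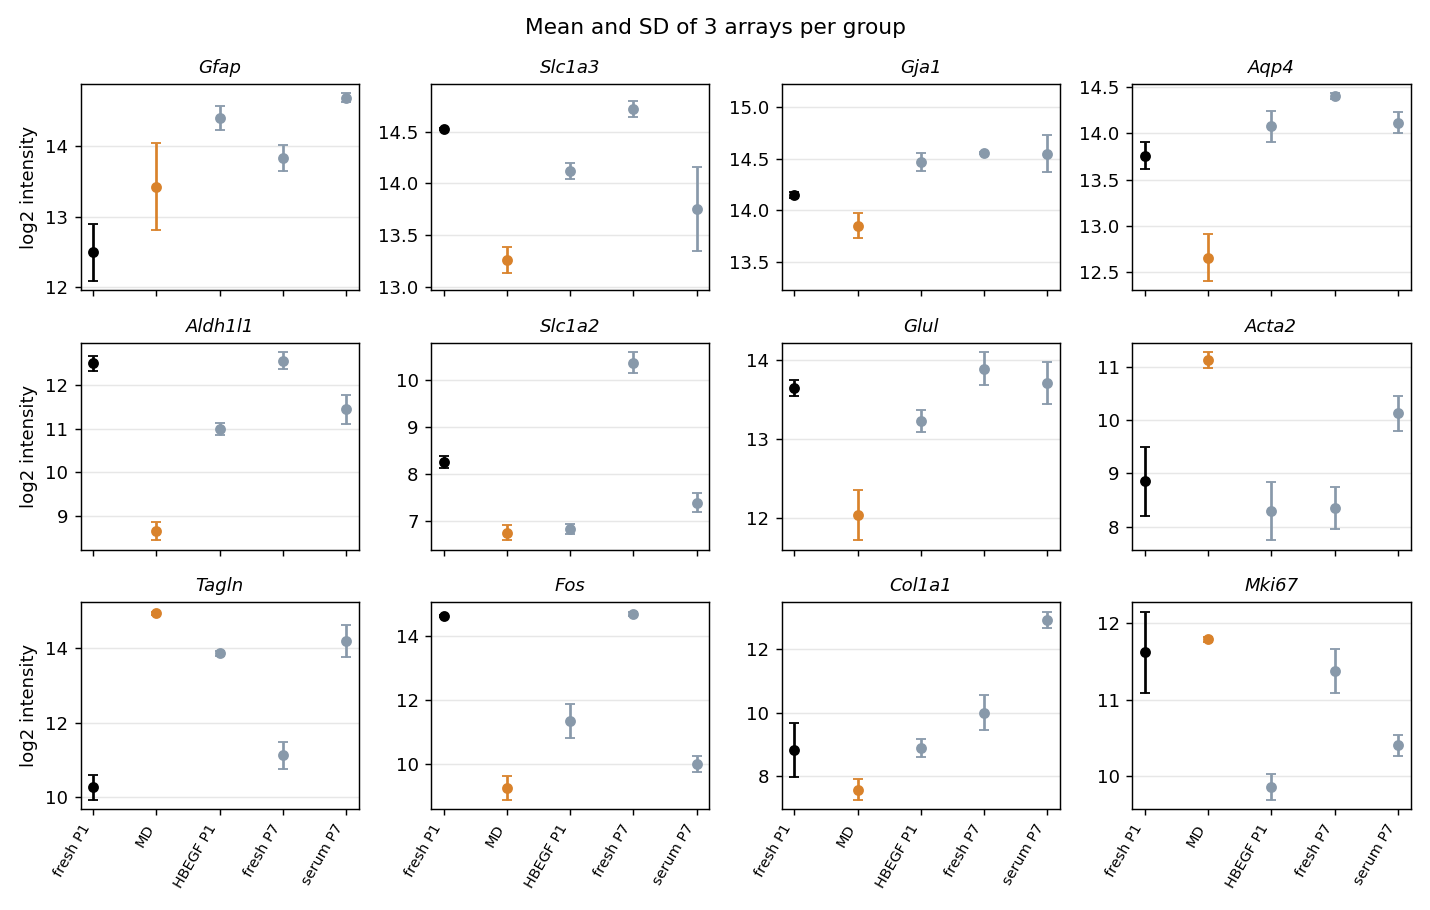
Mean and SD of log2 intensity over 3 arrays in fresh P1, MD, HBEGF P1, fresh P7 and serum P7 for 12 genes; the vertical axes differ between panels. MD is the lowest of the 5 groups for Aldh1l1 (8.65 ± 0.21) and Glul (12.03 ± 0.32) and the highest for Acta2 (11.12 ± 0.15) and Tagln (14.95 ± 0.05).

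Of 27 measured genes of radial glia and Notch signalling 14 fell and the other 13 were not called, with a median of -1.15. Notch keeps progenitors undifferentiated through Hes and Hey repressors. Hes5 was at 10.09, 11.42 and 11.96 in fresh P1 and 6.45, 6.51 and 6.42 in MD, with the MD arrays alike and fresh P1 replicate 1 the lowest fresh array, and fell by 4.70 (SE 0.52, adjusted p = 1.95e-06). Nrarp, a feedback target of Notch, fell by 3.36, Hey2 fell by 2.99, Notch1 fell by 1.90 and Hes1 fell by 1.71. The ligand Jag1 fell by 2.11. Among progenitor factors Sox3 fell by 3.36, the Hedgehog effector Gli1 fell by 2.70 and Prom1 fell by 2.29. Sox2 and Nes, which mark neural progenitors, had differences of -0.74 and 0.97 and were not called.

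Immediate-early genes, which cells switch on within minutes of a stimulus, were bright in fresh P1 cells and lower in culture. Of 32 measured members 26 fell and 1 rose, with a median of -2.51. The mean over the list ranged over 11.69 to 11.93 in fresh P1 and 8.87 to 9.20 in MD. In the other groups it was 11.82 to 12.18 in fresh P7, 7.99 to 8.40 in HBEGF P1 and 8.55 to 8.60 in serum P7 arrays, so both fresh groups were above these cultures. Fresh cells were dissociated and panned shortly before lysis and cultures were not, and the part of that handling was not tested.

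Among AP-1 genes, Fos was at 14.60, 14.64 and 14.67 in the fresh P1 arrays and 9.64, 9.22 and 8.88 in the MD arrays. The fall was 5.39 (SE 0.27, adjusted p = 2.59e-10). Junb, its partner, was at 11.57, 12.35 and 12.31 in fresh P1 and 8.46, 8.80 and 8.90 in MD and fell by 3.36 (SE 0.21, adjusted p = 4.04e-09); Atf3, a stress-induced factor of the same class, fell by 4.84, Maff fell by 3.24 and Jun fell by 1.68. Fosl1, another Fos relative, was the exception at 9.01, 9.87 and 9.25 in fresh P1 and 11.94, 11.05 and 11.59 in MD, and it rose by 2.15 (SE 0.36, adjusted p = 0.000147). No MD array of Fosl1 overlapped a fresh one.

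The group of zinc finger and nuclear receptor genes, which also holds Ier genes, fell in 12 of 14 cases. Egr1 was at 14.43, 14.67 and 14.35 in fresh P1 and 10.97, 9.49 and 9.11 in MD, with MD replicate 1 the highest MD array, and fell by 4.63 (SE 0.54, adjusted p = 3.37e-06). Nr4a2 and Nr4a3 fell by 5.38 and 4.62, Klf4 fell by 4.15 and Ier2 fell by 2.96. Egr3 and Ier5 were not called. Among the remaining members of the list, Nfkbiz, an inducible partner of NF-kappa-B, fell by 4.56, Arc fell by 4.07 and Zfp36, which destabilises messenger RNA, fell by 3.73.

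The actin cytoskeleton genes, the other class of SRF targets, moved upward. Here 20 of 30 measured members rose and 2 fell, with a median of 1.63. Because SRF binds CArG boxes near both Egr1 and Acta2, the 250 bases before their RefSeq starts are shown to set a fallen beside a risen member, from the GRCr8 table, 5′ to 3′ on the gene's strand, with matches to the CArG consensus in capitals. The Egr1 stretch is chr18:26736828-26737077 on the plus strand and the Acta2 stretch chr1:241172504-241172753 on the minus strand. Both lie upstream of the transcript.
Egr1: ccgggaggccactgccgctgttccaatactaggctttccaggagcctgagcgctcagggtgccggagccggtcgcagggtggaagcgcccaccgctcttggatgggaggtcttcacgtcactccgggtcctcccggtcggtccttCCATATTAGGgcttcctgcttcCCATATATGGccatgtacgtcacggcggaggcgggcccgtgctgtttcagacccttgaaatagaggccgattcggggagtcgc
Acta2: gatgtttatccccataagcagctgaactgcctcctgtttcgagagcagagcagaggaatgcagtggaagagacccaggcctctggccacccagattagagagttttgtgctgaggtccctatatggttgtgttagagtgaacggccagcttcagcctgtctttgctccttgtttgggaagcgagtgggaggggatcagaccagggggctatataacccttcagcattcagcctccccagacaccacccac
The Egr1 stretch held 2 matches, starting 105 and 83 bases before the start. No match to the strict consensus (CCWWWWWWGG, where W is A or T) stood in the Acta2 stretch. That stretch does hold ccctatatgg and ccttgtttgg, each with a single other letter at a W position. The search therefore does not show that Acta2 lacks CArG-like boxes in this window. Of all 27457 promoters listed, 412 (1.5%) held a match in the same window on either strand, since the consensus reads the same on both. Among genes with a promoter in the table it was 3 of 25 actin list members (Cnn2, Lima1 and Srf) and 4 of 22 immediate-early members (Egr1, Egr2, Klf6 and Zfp36). Of these Cnn2 rose, Lima1 was not called, and Srf and the 4 immediate-early genes fell. Over all tested genes with a promoter the share was 1.24% (145 of 11733). For risen genes the share was 1.5% (18 of 1200) and for fallen genes 1.2% (13 of 1085).

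In the contractile group, Acta2, smooth muscle alpha actin, was at 8.11, 9.17 and 9.26 in the fresh P1 arrays and 10.99, 11.28 and 11.09 in the MD arrays. All MD arrays lay above all fresh arrays, by 2.27 on average (SE 0.31, adjusted p = 2.09e-05). Tagln, the actin-binding protein transgelin, was at 10.29, 10.56 and 9.90 in fresh P1 and 14.99, 14.90 and 14.95 in MD and rose by 4.70 (SE 0.39, adjusted p = 8.24e-08). Cnn1 went from 7.21, 6.93 and 6.26 to 12.40, 12.14 and 12.38. Lmod1 rose by 2.77 and the myosin light chain Myl9 by 2.23, while Mylk, the kinase of that chain, fell by 1.45; the call of Mylk was lost without MD replicate 3.

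Stress fibre and adhesion genes rose in 14 of 20 cases. Tpm2, beta tropomyosin, was at 6.53, 7.17 and 6.91 in fresh P1 and 11.70, 11.01 and 11.41 in MD. Cald1, caldesmon, was at 9.49, 9.53 and 9.09 in fresh P1 and 13.19, 13.82 and 13.49 in MD. Both sets of arrays stood far apart, with rises of 4.51 (SE 0.36, adjusted p = 4.61e-08) and 4.13 (SE 0.16, adjusted p = 8.9e-12). Filamin C (Flnc) and non-muscle myosin (Myh9) both rose by 3.05, alpha actinin 1 (Actn1) by 2.74 and filamin A (Flna) by 2.23. Srf itself fell by 1.38, whereas Mrtfa, its actin-sensing coactivator, rose by 1.36. Targets of the stretch-responsive factor YAP rose in 6 of 13 cases, among them Ccn2 by 3.75 and Axl, a receptor tyrosine kinase, by 2.16; Ccn1 had a difference of -0.39 and was not called.

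Annexins and S100 proteins, which bind calcium and membranes, were mostly higher. Of 19 measured members 12 rose and the other 7 were not called, and the median was 3.26. Anxa1, a glucocorticoid-regulated annexin, was at 8.44, 9.78 and 9.18 in fresh P1 and 14.17, 13.98 and 13.98 in MD and rose by 4.91 (SE 0.41, adjusted p = 7e-08). Anxa2 was at 8.71, 10.01 and 9.58 in fresh P1 and 14.34, 14.34 and 14.42 in MD, its MD arrays nearly equal, and rose by 4.93 (SE 0.42, adjusted p = 9.04e-08). Its partner S100a10 rose by 3.56. Anxa3, Anxa5, Anxa4 and Anxa7 rose by 4.95, 3.77, 3.46 and 3.26. Anxa6 (-0.04), S100a1 (0.05) and S100a13 (-0.21) were not called.

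**Figure D4:**
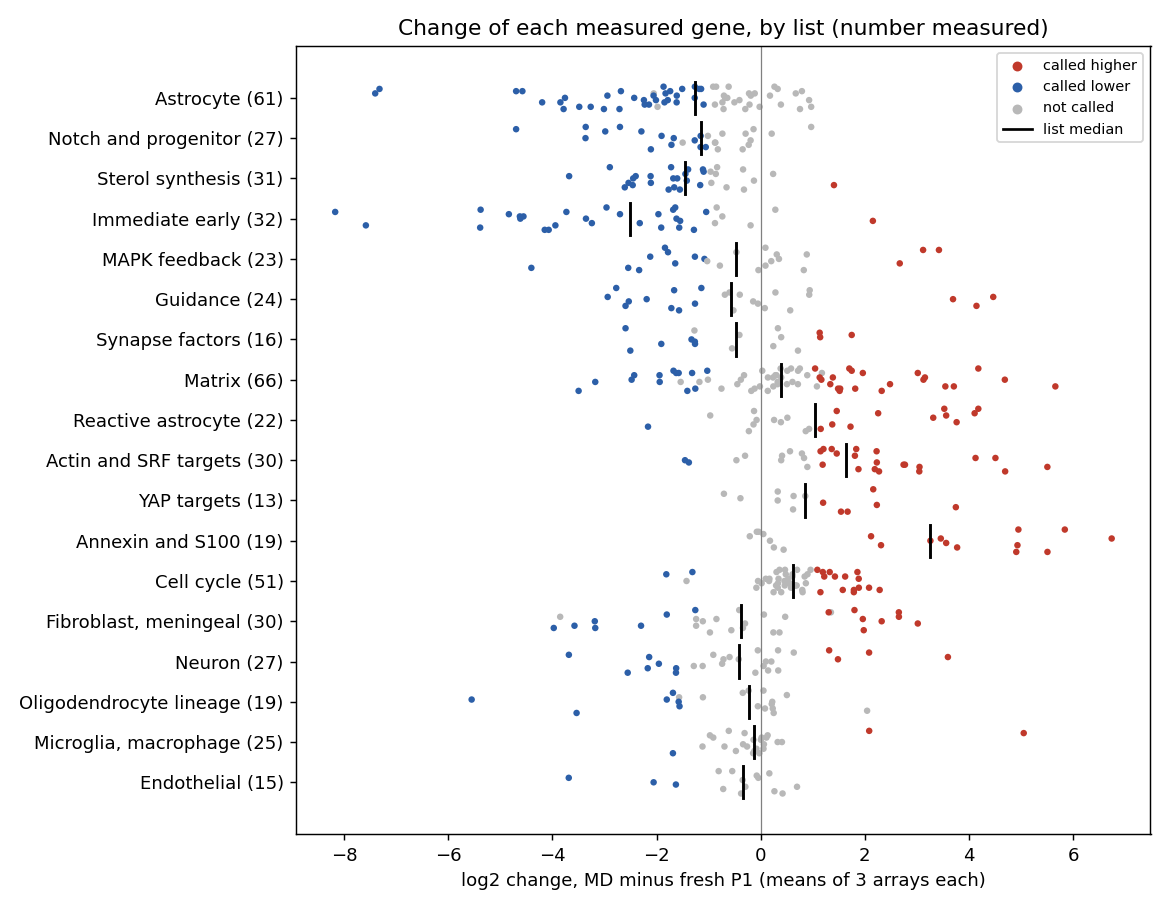
log2 change, MD minus fresh P1, of every measured gene in 18 lists; each point is a gene coloured by its call, the bar is the list median, and the number measured is in brackets. The annexin and S100 median is 3.26 and the immediate-early median -2.51, against 0.11 over all genes.

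Extracellular matrix genes moved in both directions: 22 of 66 measured members rose and 13 fell. Collagen VI chains were higher, Col6a2 from 5.30, 6.93 and 6.33 in fresh P1 to 10.13, 10.09 and 9.47 in MD. Its rise was 3.71 (SE 0.29, adjusted p = 3.16e-08), and Col6a1 rose by 3.15 (SE 0.27, adjusted p = 1e-07). Col18a1 rose by 3.13, and enzymes that modify and crosslink collagen rose with it, Loxl2 by 4.69 and the prolyl hydroxylase subunit P4ha3 by 3.55. Fn1, fibronectin, was at 10.34, 10.75 and 10.29 in fresh P1 and 12.59, 13.24 and 12.99 in MD and rose by 2.48 (SE 0.23, adjusted p = 3.15e-07). Cd44, the hyaluronan receptor, was at 7.93, 8.57 and 8.49 in fresh P1 and 12.21, 12.75 and 12.57 in MD and rose by 4.18 (SE 0.41, adjusted p = 4.76e-07).

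The fallen members included some basement membrane genes and brain matrix genes. Basement membrane genes were split, since Hspg2, perlecan, rose by 1.82 and Col18a1, also of that membrane, rose by 3.13. Nid1, nidogen, which links laminin to collagen IV, was at 14.06, 13.78 and 13.56 in fresh P1 and 10.44, 10.29 and 10.19 in MD and fell by 3.50 (SE 0.24, adjusted p = 1.04e-08). Bcan, brevican, fell by 2.43, the hyaluronan synthase Has2 fell by 2.48 and the phosphatase and proteoglycan Ptprz1 fell by 1.94. The basement membrane laminins Lama1 and Lama4 fell by 1.62 and 1.41. Tnc, tenascin C, was at 14.31, 14.20 and 14.16 in fresh P1 and 13.26, 13.40 and 12.96 in MD. Its arrays did not overlap, yet the difference of -1.01 (SE 0.62, adjusted p = 0.216) did not pass. That SE pools the spread of all 7 groups, not only of the arrays listed.

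Fibroblast and meningeal genes showed no common direction, with 8 of 30 measured members higher and 7 lower. Lum, lumican, was at 7.81, 9.37 and 8.49 in the fresh P1 arrays and 4.84, 4.44 and 4.47 in the MD arrays. The MD arrays were all dim, and the fall was 3.97 (SE 0.49, adjusted p = 5.63e-06). Col3a1, a fibrillar collagen of connective tissue, was at 9.52, 11.11 and 9.99 in fresh P1 and 7.72, 6.16 and 7.21 in MD and fell by 3.18 (SE 0.53, adjusted p = 0.000127). Col1a1 was at 8.30, 9.80 and 8.38 in fresh P1 and 7.93, 7.45 and 7.34 in MD and fell by 1.26 (SE 0.40, adjusted p = 0.0196); without fresh P1 replicate 2 the change was -0.77 and was not called, nor was it without MD replicate 2 (-1.19) or 3 (-1.14). Col1a2, the partner chain of Col1a1, rose by 1.96, from 9.93, 11.37 and 10.16 to 12.20, 12.58 and 12.56. Thy1, Bgn and Postn rose by 2.65, 2.65 and 3.02. Without fresh P1 replicate 2, or without MD replicate 3, the fallen members numbered 4 in place of 7.

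Proteases and their receptors held a few large changes. Plaur, the urokinase receptor, was at 5.62, 6.58 and 5.98 in fresh P1 and 11.97, 9.12 and 10.13 in MD and rose by 4.34 (SE 0.64, adjusted p = 4.18e-05). Its MD arrays were spread widely, with replicate 1 the highest. Timp2, a metalloproteinase inhibitor, rose by 2.04, and Timp4, its astrocyte-enriched relative, fell by 2.94. Mmp15, a membrane-bound metalloproteinase, fell by 2.80. Among integrins, Itga5, the fibronectin receptor subunit, was at 6.34, 6.59 and 6.73 in fresh P1 and 9.93, 9.43 and 9.44 in MD and rose by 3.05 (SE 0.14, adjusted p = 4.97e-11), and Itga3, a laminin receptor subunit, rose by 2.71. Itgb5, the panning antigen used to collect the fresh cells, was at 11.94, 12.18 and 12.05 in fresh P1 and 10.12, 10.52 and 10.79 in MD and fell by 1.58 (SE 0.32, adjusted p = 0.000897). Its mean was 10.72 in the HBEGF P1 cultures, which were panned, and MD differed from these by -0.24, not called. In panned serum P7 cultures it changed by -1.03 from fresh P7, a call. The part of selection by its protein was not tested.

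Genes described in reactive astrocytes rose in 11 of 22 measured cases and fell in 1, with a median of 1.04. Lcn2, lipocalin 2, was at 5.11, 5.64 and 5.51 in fresh P1 and 9.14, 9.04 and 9.38 in MD and rose by 3.76 (SE 0.64, adjusted p = 0.000158). Hspb1, a small heat shock protein, was at 9.99, 10.12 and 10.34 in fresh P1 and 14.14, 14.22 and 14.41 in MD and rose by 4.11 (SE 0.55, adjusted p = 1.64e-05). Serpina3n rose by 3.53, though its MD arrays, at 6.30, 8.66 and 10.06, were spread widely. Stat3, a transcription factor of reactive gliosis, fell by 2.16, from 12.82, 13.12 and 12.54 to 10.40, 11.05 and 10.54.

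Chemokine genes held large single changes. Ccl2, which attracts monocytes, was at 9.46, 9.88 and 9.60 in fresh P1 and 14.42, 13.01 and 13.85 in MD and rose by 4.11 (SE 1.16, adjusted p = 0.00974). Ccl7, a related chemokine, was at 7.30, 7.86 and 7.81 in fresh P1 and 13.47, 11.10 and 12.27 in MD and rose by 4.62 (SE 0.96, adjusted p = 0.00098). In both, MD replicate 1 was the highest and MD replicate 2 the lowest MD array, all above the fresh arrays. Cxcl3 rose by 3.17, while Cx3cl1, fractalkine, fell by 2.80 and Ccl3 fell by 1.75; the call of Ccl3 was lost without fresh P1 replicate 2 or 3. Of 29 interferon and antigen presentation genes 5 rose, Gbp2 by 4.91 and the immunoproteasome subunit Psmb8 by 2.11 among them, and 1 fell. The share that rose, 17.2%, stands against 10.1% of all genes. Of 25 complement and chemokine genes 8 rose in the full set, and between 3 (without fresh P1 replicate 1) and 7 (without fresh P1 replicate 2) with 1 of these 6 arrays left out; without MD replicate 3 it was 4, and without fresh P1 replicate 3, MD replicate 1 or MD replicate 2 it was 5.

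Cholesterol synthesis genes fell in 13 of 17 measured cases. Fatty acid synthesis genes fell in 4 of 9, and the other 5 were not called. Of 31 measured members of the joint list, which also holds regulators, 21 fell and 1 rose, with a median of -1.45. Insig1, the sterol-sensing regulator of SREBP processing, was at 13.20, 13.21 and 13.18 in the fresh P1 arrays and 9.49, 9.64 and 9.41 in the MD arrays. The groups were more than 3 log2 apart and the fall was 3.68 (SE 0.23, adjusted p = 3.18e-09). Idi1, isopentenyl diphosphate isomerase, was at 14.05, 13.89 and 14.00 in fresh P1 and 11.67, 10.63 and 10.95 in MD and fell by 2.90 (SE 0.19, adjusted p = 4.68e-09). Dhcr7, a late enzyme of the pathway, was at 12.14, 12.22 and 12.18 in fresh P1 and 9.64, 9.98 and 9.72 in MD and fell by 2.40 (SE 0.10, adjusted p = 4.61e-11). Tm7sf2, Hsd17b7 and Lss fell by 2.61, 2.54 and 2.46, and the transcription factor Srebf2 fell by 1.39. In fatty acid synthesis, Scd fell by 2.11 and Fasn fell by 1.42; Acaca, with a difference of -0.32, was not called. Ebp, a sterol isomerase, was the risen member, by 1.41.

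Growth factor signalling genes moved in both directions. Egfr, the receptor of HBEGF, was at 12.07, 11.77 and 11.43 in fresh P1 and 9.55, 8.95 and 9.14 in MD and fell by 2.54 (SE 0.26, adjusted p = 8.82e-07). Hbegf, the ligand, did not exceed 8.72 in fresh P1, read 12.94, 11.10 and 11.61 in MD and rose by 3.42 (SE 0.55, adjusted p = 9.92e-05), with MD replicate 1 the highest. Areg, another ligand of that receptor, fell by 2.33. Its MD arrays were spread widely, at 9.27, 6.20 and 7.18, with replicate 1 close to the lowest fresh array at 9.56. Of 23 genes of MAP kinase feedback and EGFR signalling 3 rose and 9 fell. Among feedback genes, Spry1 fell by 4.40, Spry2 fell by 1.78 and the ETS factor Etv1 fell by 1.84, while the EGFR inhibitor Errfi1 rose by 2.67. The MAP kinase phosphatases split: Dusp7 rose by 3.12, Dusp1 fell by 1.64 and Dusp5 fell by 1.26, a call lost without MD replicate 2 or 3. In the TGF-beta class, Tgfb3 and Tgfb2 rose by 3.25 and 2.48, the latent TGF-beta binding protein Ltbp2 by 4.19 and the activin binder Fst by 4.58, and the ligand Bmp7 fell by 2.74. Igfbp3 and Igfbp7, insulin-like growth factor binding proteins, rose by 3.60 and 2.24, and Igfbp5 fell by 3.63.

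Factors that act on neurons also differed. Sema3c and Sema3e, secreted semaphorins that steer axons, rose from 8.63, 8.71 and 8.71 to 13.18, 13.21 and 13.07 and from 6.34, 6.51 and 6.54 to 10.18, 10.59 and 11.05. The semaphorin receptor subunit Nrp2 rose by 3.69, whereas Nrp1 fell by 1.66. Of the Eph receptors, Epha4 fell by 2.77, Epha5 fell by 2.94 and Ephb1 fell by 2.60. Bdnf fell by 2.50, and the synapse-promoting Thbs4 and Sparcl1 fell by 1.91 and 1.26. Sparc, an antagonist of Sparcl1, and Thbs2 rose by 1.13 and 1.75. Among ion channels, large changes were seen in Kcnd2, an A-type potassium channel subunit, which fell by 5.16, and Scn7a, a sodium-sensing channel, which rose by 3.51.

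In energy and redox genes most members did not pass. Pdk4, which restrains pyruvate oxidation, fell by 3.13, Ldhb fell by 1.03 and the glycogen phosphorylase Pygb fell by 1.61, and Ldha, the other lactate dehydrogenase, rose by 1.35. Hmox1, haem oxygenase, did not exceed 9.28 in fresh P1, read 11.73, 11.98 and 12.54 in MD and rose by 3.18 (SE 0.34, adjusted p = 1.39e-06). Nqo1 rose by 1.41 and catalase (Cat) fell by 1.44. Gsta1 rose by 4.55, but its probes can share signal with close paralogs.

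Cell cycle genes lay somewhat higher in MD cultures, with 15 of 51 measured members risen and 2 fallen and a median of 0.61. Mki67, the proliferation marker, was at 12.23, 11.36 and 11.27 in the fresh P1 arrays and 11.82, 11.76 and 11.80 in the MD arrays; the groups overlap and the difference was 0.17 (SE 0.36, adjusted p = 0.752). Plk1, a mitotic kinase, was at 9.59, 9.80 and 9.55 in fresh P1 and 10.78, 11.21 and 11.66 in MD and rose by 1.58 (SE 0.39, adjusted p = 0.0043). Aurka, Kif20a and the replication genes Fen1 and Mcm5 rose by 1.79, 1.86, 1.88 and 1.43. Cyclin genes split: Ccnd1 was at 12.10, 12.15 and 12.50 in fresh P1 and 14.01, 14.06 and 14.05 in MD and rose by 1.79 (SE 0.46, adjusted p = 0.00498), and Ccnd2 fell by 1.81. Cell cycle inhibitors did likewise, with Cdkn1a and Cdkn2a up by 1.88 and 2.28 and Cdkn1b down, a change of -1.31.

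Markers of other cells moved in both directions. Of the neuron list 7 of 27 measured members fell and 4 rose, and without fresh P1 replicate 1, 2 or 3 the fallen members numbered 4. Sox4 and Map2 fell by 2.55 and 1.96, and Stmn2, a tubulin regulator of growing axons, rose by 3.60 (SE 0.97, adjusted p = 0.00754). In the oligodendrocyte lineage list 6 of 19 fell, Cspg5 and Bcas1 (-3.54) most, and the other 13 were not called, although Mbp, at 8.46, 6.57 and 6.38 in fresh P1 and 9.15, 8.97 and 9.43 in MD, was above its fresh values in every MD array. That list is mixed, since Cspg5 is also made by astrocytes. Of 25 microglial genes 2 rose, Lgals3 by 5.05 and Gpnmb by 2.08, both also made by other cell types. Fcer1g, an Fc receptor subunit, fell by 1.69 (SE 0.64, adjusted p = 0.0478), a call lost with any 1 of the 6 arrays left out. The mean of the microglial list was 6.30 to 6.44 in MD and 6.14 to 6.47 in fresh P1. Of 15 endothelial genes 3 fell, Cldn5 fell by 3.69, Kdr fell by 2.06 and Slc38a5 fell by 1.63; their list mean was 5.64 to 5.86 in MD and 6.24 to 6.57 in fresh P1. Of 10 mural cell genes 2 fell and 1 rose: Rgs5 fell by 3.03, Pdgfrb fell by 1.74 and Mcam rose by 1.20 (SE 0.40, adjusted p = 0.0247). Leaving out replicate 2 or 3 of either group ended the call of Mcam. The part of such cells in the changes above was not tested.

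MD cultures were next set beside HBEGF P1 cultures, which started from the same age and were kept as long, but were panned and grew without serum. In MD, 1253 genes were higher (8.81%) and 1360 lower (9.57%) than in HBEGF P1. This comparison uses the same MD arrays as the one with fresh cells, so values are given side by side only. Cell cycle genes were higher in MD in 41 of 51 cases and lower in 2; Mki67 was at 9.86 ± 0.17 in HBEGF P1 (SD, n = 3) and 11.79 ± 0.03 in MD, a difference of 1.93 (SE 0.36, adjusted p = 0.000424). Actin and SRF targets were higher in 23 of 30 cases. Acta2, at 8.29 ± 0.55 in HBEGF P1, was higher in MD by 2.83 (SE 0.31, adjusted p = 2.48e-06).

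Astrocyte genes were lower in MD than in HBEGF P1 in 26 of 61 cases and higher in 2, Nes and Ncan. Aldh1l1 differed by -2.35 (SE 0.25, adjusted p = 1.29e-06). Glul was at 13.23 ± 0.14 in HBEGF P1 against 12.03 ± 0.32 in MD (SD, n = 3), a difference of -1.20 (SE 0.18, adjusted p = 7.49e-05). For Slc1a2 the difference was -0.08 (SE 0.20, adjusted p = 0.788), not called, and for Slco1c1 -1.55 (SE 0.28, adjusted p = 0.000353). Of 32 immediate-early genes 12 were higher in MD than in HBEGF P1, Fosl1 by 3.57 among them. The 2 lower ones were Fos (-2.10) and Egr1 (-1.58), and the list median was 0.56. Fosb and Nr4a1 differed by 0.46 and -0.69 and were not called. The largest excesses in MD were Cxcl1, a neutrophil chemokine (6.37), Vgf, a secreted neuropeptide precursor (5.97), Mall (5.79), Gda (5.78) and Acta1 (5.73), and the largest deficits were the non-coding RNA Miat (-6.12), Smoc1 (-5.78), Spon1 (-5.51), the progenitor receptor Pdgfra (-5.49) and the cation transporter Slc22a3 (-5.49). Against fresh P1, Cxcl1 differed by 1.09 (SE 0.59, adjusted p = 0.164) and was not called.

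The panned P7 cells grown in serum offer a comparison with no array in common. In serum P7 cultures 1296 genes were higher (9.12%) and 1285 lower (9.04%) than in fresh P7 cells. The comparisons shared 666 risen genes, 46.2% of the MD list and 51.4% of the serum P7 list, and 790 fallen genes, 59.0% and 61.5%. Calls in opposite directions numbered 9 and 22. Across genes, which are not independent replicates, the changes correlated with Pearson's r = 0.688. Both comparisons set a culture against freshly panned cells on the same array type. In serum P7, S100a6 changed by 6.35, Anxa2 by 5.07, Fosb by -8.77 and Cald1 by 4.09, and the astrocyte transporter gene Slco1c1 by -7.07. Fosl1 went opposite ways, with -1.42 in serum P7 and 2.15 in MD.

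The difference of these changes, tested as an interaction in the same fit, was positive for 736 genes (5.18%) and negative for 604 (4.25%). The MD change was the higher one in 7 of 32 immediate-early genes, Fosl1 among them (3.58, SE 0.51, adjusted p = 0.000383), and in 3 of 19 annexin and S100 genes. Of 30 actin genes it was higher in 4 and lower in 2. Of 30 fibroblast and meningeal genes 20 rose in serum P7 cultures, the MD change was the lower one in 13 and the higher one in 1. Lum changed by 1.99 in serum P7, from 10.13 ± 0.73 to 12.12 ± 0.57 (SD, n = 3), and by -3.97 in MD, a difference of -5.96 (SE 0.69, adjusted p = 6.63e-05). Col3a1 changed by 3.27 and -3.18, a difference of -6.44 (SE 0.74, adjusted p = 6.64e-05). The mean of the fibroblast list was 10.28 to 11.80 in serum P7 arrays and 8.40 to 9.25 in fresh P7 arrays, and the part of such cells in the serum P7 values was not tested.

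Of 61 astrocyte genes the MD change was the lower one in 4 and the higher one in 7. Aldh1l1 changed by -1.12 in serum P7, a difference of -2.73 (SE 0.35, adjusted p = 0.000154), and Glul by -0.18, a difference of -1.43 (SE 0.26, adjusted p = 0.00215). Slc1a2 went the other way, with -2.98 in serum P7 from a higher fresh level of 10.37 ± 0.22 (SD, n = 3), a difference of 1.47 (SE 0.28, adjusted p = 0.00264). Mall and Slfn4, 2 of the largest rises in MD, changed by -0.16 and 0.70 in serum P7. Hbegf changed by -0.06, and its difference was 3.49 (SE 0.78, adjusted p = 0.00817). Itih3, at 6.20 ± 0.05 in serum P7, changed by -7.89 there and by -2.71 in MD, where replicate 1 remained near the fresh level; without it the MD change was -3.88.

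**Figure D5:**
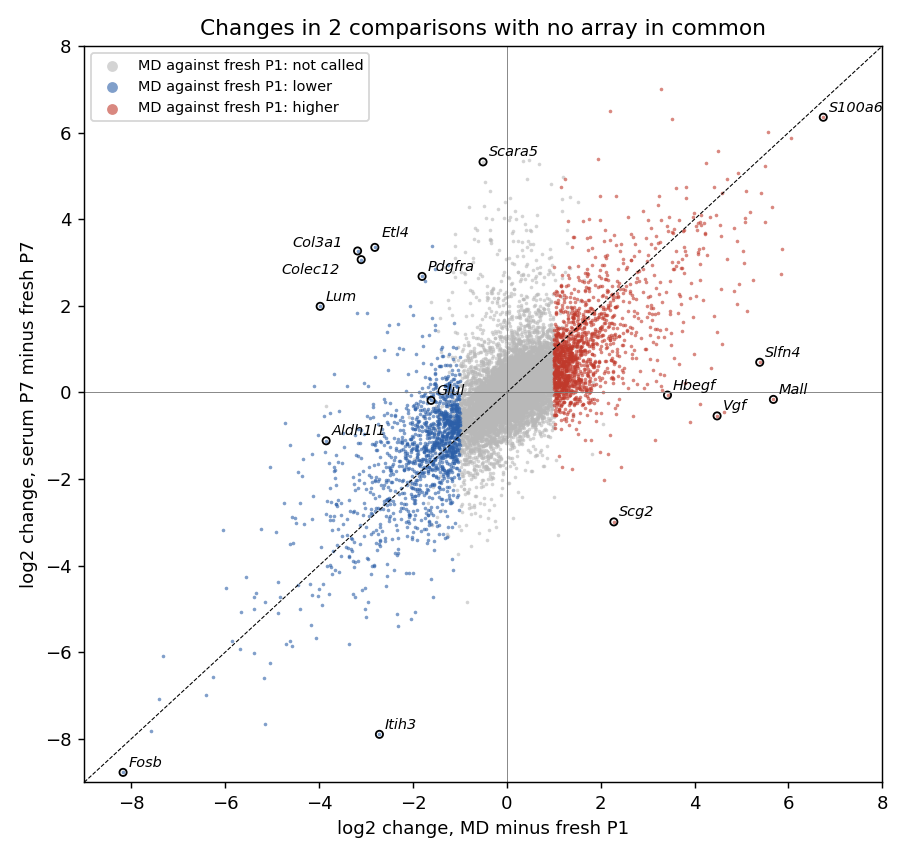
log2 change in MD against fresh P1 (horizontal) and in serum P7 against fresh P7 (vertical) for 14217 genes, coloured by the MD call; the dashed line marks equal change and no array enters both axes. S100a6 and Fosb lie near the line, Lum, Col3a1, Colec12 and Etl4 above it on the left, and Mall, Slfn4, Vgf and Scg2 below it on the right.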

How the data were processed

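RNA of 21 samples was measured on Affymetrix Rat Genome 230 2.0 arrays, 6 of them from the MD and fresh P1 groups. The deposited values are intensities on a linear scale from RMA, per the submitters' processing notes; which software and chip definition were used is not given in the sources used here. RMA corrects background and equalises the distribution of probes over arrays, so a shift of all genes together would not show. Per the labels' protocols, QIAGEN RNeasy columns gave the total RNA and Affymetrix's 3' IVT Express kit the labelled target. Deposited intensities were 10.0 to 37801 and array medians 128 to 146. No read depth applies to arrays, and 3 arrays a group limit the precision; an exact permutation test of 3 against 3 cannot go below p = 0.1, so only the fit across all probe sets was used.

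The log2 of each intensity was taken and limma 3.58.1 (R 4.3.3) was fitted to 31042 probe sets with 7 group means over 21 arrays (14 residual and 2.89 prior degrees of freedom). Benjamini-Hochberg adjustment ran over all probe sets in each contrast. A gene is the probe set with the highest mean among those with 1 gene symbol in the platform annotation (20826 of 31042); 436 with several symbols and 9780 with none are not named. Of the named, 20758 matched a gene number in RefSeq (GRCr8), and 4525 genes had over 1 probe set. Of the called genes 36 have another probe set changed the opposite way, among them Ccne2, Gas6, Igf2 and Lrp1. Probe sets of close paralogs, such as Hspa1a, Gsta1 and Lyz2, may share signal.

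Named genes are the 15 largest rises and falls with non-overlapping arrays, up to 4 called members a direction and role in each list with the largest change, 16 fixed genes, and the 5 largest differences each way against HBEGF P1 and against the serum P7 change; members named as not called, and further members of a role, were chosen after their values were seen. The comparison and the 31 lists (720 of 790 entries measured) were chosen with earlier results of these data known. Same-numbered MD and fresh P1 arrays deviated together (correlation 0.233 to 0.389 for the 3 numbers, over probe sets), so a fit with the replicate number as a block was run as an alternative. On simulated data of 14217 genes for MD against fresh P1, 92.5% of changes of 1.5 log2, 95.5% of 2 log2 and 98.5% of 3 log2 were recovered, with 1 false call. The simulated noise was independent between probe sets and arrays, and few genes were changed. Since real arrays deviated together, these rates do not give the error rate of the calls above. Promoter sequences are from RefSeq (GRCr8); coordinates are 1-based. Alternatives were other scalings, filters, floors, probe set rules, fits and fold limits, and each array left out in turn.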

Additional observations from a re-analysis of the deposited data

Results flagged for a closer look

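Changes in MD cultures against fresh P1 cells and in serum P7 cultures against fresh P7 cells differed, by the interaction term of the limma fit, for 25 of the 61 genes chosen by size of change or fixed by name; over all genes the difference was called positive for 5.18% and negative for 4.25%. Each difference below is the MD change minus the serum P7 change on the log2 scale. Of these 61, 10 were chosen for the size of this difference itself and 30 for the size of the MD change that enters it, so neither their values nor the count of 25 is a separate finding. The array groups of 3 are too small for a test of single outlying arrays.

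Some genes changed more upward in MD. Mall differed by 5.84 and Slfn4 by 4.69. The secretory granule proteins Scg2 and Vgf differed by 5.27 (SE 0.84, adjusted p = 0.000801) and 5.02 (SE 0.79, adjusted p = 0.000737). Scg2 changed by 2.28 in MD and by -2.99 in serum P7, in opposite directions. The chemokines Ccl7 and Cxcl1 differed by 5.09 (SE 1.35, adjusted p = 0.0221) and 4.37 (SE 0.83, adjusted p = 0.00286), and the growth factor Hbegf by 3.49. Itih3 differed by 5.18 (SE 1.01, adjusted p = 0.00319), having fallen in both cultures and further in serum P7; its call in MD against fresh P1 was lost in a fit to these groups' arrays alone. Cryab differed by 3.24, S100a4 by 3.10, C9h6orf141 by 2.66, Fstl3 by 2.55, skeletal muscle actin Acta1 by 1.75 and Slc1a2 by 1.47.

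Others changed more downward in MD. The connective tissue genes Col3a1, Lum and Col1a1 differed by -6.44, -5.96 and -4.19 (SE 0.56, adjusted p = 0.000226), the scavenger receptors Colec12 and Scara5 by -6.17 (SE 1.09, adjusted p = 0.00182) and -5.83 (SE 1.13, adjusted p = 0.00318), and Pdgfra and Etl4 by -4.48 and -6.16 (SE 0.80, adjusted p = 0.000181). Pdgfra was called lower in MD against fresh P1, and that call was lost with any 1 of the 6 arrays left out. Scara5 differed by -0.51 between MD and fresh P1, not called, and changed by 5.32 in serum P7. Aldh1l1, Glul, Sfrp2 and Rnf122 differed by -2.73, -1.43, -2.85 and -1.47.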

How the results depend on the processing

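The counts depended most on the fold limit. Without one, 3587 genes were higher and 2567 lower in MD than in fresh P1, and with a limit of 2 log2 384 and 442. Against HBEGF P1 these numbers were 3107 and 2900, then 401 and 380. For serum P7 against fresh P7 they were 3161 and 2754, then 475 and 432. For the difference of the changes, 1288 were higher without a limit, and with a limit of 2 log2 130 were higher and 228 lower. With 1 array left out in turn, MD against fresh P1 gave 1338 to 1564 higher and 1249 to 1338 lower genes. Medians over all genes moved from 0.11 to 0.20 under median centring, which gave 1687 higher and 1214 lower (58.2% higher, against 51.8%). With the replicate number as a block the counts were 1450 and 1357, 2781 of the 2782 calls were kept and none of the 277 named genes changed its call. Other scalings, filters, floors and fits gave 1334 to 1477 higher and 1148 to 1418 lower; the lowest of both came from averaging all probe sets of a gene, which ended 16 calls among the 277 named genes, Slc1a2, Kdr and Pdgfrb among them, and a floor of 64 ended 15, Colec12, Etl4 and Slc6a11 among them. Between 15 and 21 of the named genes lost a call when 1 of the 6 arrays was left out. List counts of 0 to 2 also moved by 1 gene with 1 array left out: risen astrocyte genes numbered 1 without fresh P1 replicate 2 or 3 or MD replicate 1, risen oligodendrocyte lineage genes 1 without fresh P1 replicate 1, fallen reactive genes 2 without fresh P1 replicate 3 or MD replicate 1, fallen interferon genes 2 without MD replicate 2, fallen chemokine genes 1 without fresh P1 replicate 2 or 3, and risen mural genes 2 without MD replicate 1. The fit and scaling moved some small list counts too. With only the compared groups fitted, fallen complement and chemokine genes numbered 4 in place of 2. Risen oligodendrocyte lineage genes then numbered 1 in place of 0, and fallen microglial genes 2 in place of 1. Under median centring 2 astrocyte genes rose in place of 0. Mki67 and S100b, not called, changed sign with 1 array left out: Mki67 ranged over -0.0068 (without fresh P1 replicate 3) to 0.472, and S100b over -0.037 (without fresh P1 replicate 1) to 0.302. Dim probes carry no detection call, so a change from or to values near 5 is limited by the array's background.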

Other observations

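Of 14 measured engulfment genes 4 fell, among them the bridging protein Mfge8, which fell by 2.06, and 2 rose, the receptor Axl by 2.16 and its ligand Gas6 by 1.88; another probe set of Gas6 changed the opposite way. Mertk, the related engulfment receptor, was at 7.49, 7.33 and 7.49 in fresh P1 and 7.11, 7.62 and 7.70 in MD and was not called. Of 14 chaperone genes 3 rose, the small heat shock genes Cryab, Hspb1 and Hspb8 (2.67), and Hspa5, the chaperone of the endoplasmic reticulum, fell by 1.08. In the guidance list 10 of 24 fell and 3 rose, in the MAP kinase feedback list 9 of 23 fell and 3 rose, and among synapse factors 6 of 16 fell and 3 rose. Among 32 TGF-beta and BMP genes 5 rose and 5 fell, among 10 of the insulin-like growth factor system 2 rose and 3 fell, among 20 antioxidant genes 6 rose and 2 fell, and among 21 glycolysis genes 3 rose and 5 fell. Without MD replicate 1 the fallen TGF-beta and BMP genes numbered 3. Without MD replicate 2 the risen glycolysis genes numbered 1, and without fresh P1 replicate 3, MD replicate 2 or MD replicate 3 the fallen antioxidant genes numbered 1. Proteases and inhibitors counted 6 risen and 5 fallen of 24, integrins 3 and 1 of 14 (2 fallen without fresh P1 replicate 2), and channels 1 and 2 of 18. Over all genes 10.1% rose and 9.43% fell. Channels (5.56% risen, 11.1% fallen), fallen integrins (7.14%) and risen guidance genes (12.5%) lay near or below these shares. Fallen guidance genes (41.7%) lay well above. Whether any list differed from the shares of all genes was not tested. Of 9 ependymal and choroid genes Otx2 fell by 3.46.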
